A study of Mus musculus with 18 samples.

Results

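The 44 genes described here are a fixed set of cell cycle genes, chosen by symbol with earlier results of these data known, among 21015 gene identifiers in a bulk RNA-seq table of mouse tumours. They fall into 26 genes used in G2 and mitosis and 18 genes used in S phase, and all 44 were found in the table and passed the filter on low counts. The tumours grew from implanted MC38-OVA cells, mouse colon carcinoma cells that carry ovalbumin as a model antigen, and the labels give an age of 10 weeks and a collection 7 days after treatment. The 6 groups of 3 libraries were KO-Clonidine, KO-Guanabenz and KO-Control, in which the host mice carry the genotype ADRA2A-/-, and WT-Clonidine, WT-Guanabenz and WT-Control in wild-type hosts. Clonidine and guanabenz are agonists of alpha2-adrenergic receptors, of which the Adra2a product is one, and were injected daily into the peritoneum. The controls received PBS per the treatment protocol, although their treatment entry reads untreated. The libraries titled KO-Guanabenz also carry the entry untreated; the title was followed, and every KO-Guanabenz value below holds only as far as that title is right. Doses are not given, so a difference between the drugs cannot be told apart from a difference in dose. The tumour cells carry their own genome, so only the host cells of a KO tumour lack Adra2a. The labels tie no library to an animal, and p-values therefore refer to the spread among libraries, part of which may be technical.

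S phase genes build the machinery that copies DNA. The MCM helicase is loaded on origins with the help of Cdc6, switched on by the Cdc7 kinase with Cdc45 and the GINS complex, and fed with nucleotides by ribonucleotide reductase and thymidylate synthase. Mitotic genes come on later: Cdk1 with the B cyclins drives entry, Mastl protects the Cdk1 phosphorylations from phosphatase, kinesins and spindle proteins move the chromosomes, and the anaphase-promoting complex with Cdc20 ends mitosis. In mammalian cells many S phase promoters carry E2F elements, while many mitotic promoters carry a cell cycle homology region (CHR) read by the DREAM and MuvB complexes, often beside CCAAT boxes bound by NF-Y. In a tumour of this kind these transcripts come from dividing carcinoma cells and from any dividing host cells. In bulk tissue, fewer dividing cells and less RNA per cell cannot be told apart.

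Promoter letters differed between the classes along these lines. RefSeq windows of 300 bases, from 250 before to 50 after each start site (GRCm38.p6), were found for 37 of the 44 members, 22 mitotic and 15 S phase. Both strands were searched and each motif was counted separately; overlaps between motifs were allowed. A CHR core (TTTGAA or TTCGAA) lay in 17 of the 22 mitotic promoters, or 77.3%, and in 4 of the 15 S phase promoters, or 26.7%, against 21.7% of the 27025 genes in the table. An E2F element (TTTNNCGC) lay in 7 of the S phase promoters, 46.7%, and in 1 mitotic promoter, 4.55%, against 5.93% of all genes. The CCAAT box was frequent in both classes, at 86.4% of the mitotic and 73.3% of the S phase promoters, against 41.1% of all genes. With the narrower E2F letters TTTCCCGC or TTTGGCGC, 5 S phase promoters (33.3%) and 0 mitotic promoters kept a match, against 1.8% of all genes. A match is a string of letters and no evidence that a factor binds there.

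**Figure D1:**
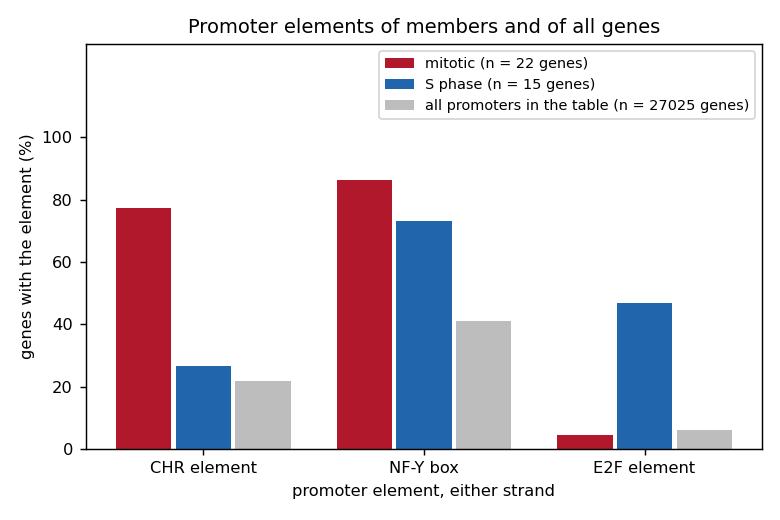
Share of genes (y axis, percent) whose 300-base promoter window holds each element on either strand (x axis, with the CCAAT box written as NF-Y box), for mitotic members (red), S phase members (blue) and all genes in the promoter table (grey). The CHR bar is tallest for mitotic members at 77.3%, and the E2F bar is tallest for S phase members at 46.7%.

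The stretches below lie directly upstream of the start site and end at its last preceding base. They show a mitotic kinase with all 3 elements, a mitotic gene with CHR and CCAAT, a pair of MCM genes with E2F, and the members with the smallest p-values in the expression tests, Mastl and Cdc7. Capitals mark CHR cores, CCAAT boxes (ATTGG on the other strand) and E2F elements; a run longer than 8 capitals holds overlapping E2F matches. All are written 5′ to 3′ on the gene's strand.
Cdk1, chr10:69352913-69353052, minus strand: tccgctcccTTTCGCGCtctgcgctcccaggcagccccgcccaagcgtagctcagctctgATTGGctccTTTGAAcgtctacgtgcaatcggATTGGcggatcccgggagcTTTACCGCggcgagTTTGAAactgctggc
Cdc20, chr4:118437344-118437463, minus strand: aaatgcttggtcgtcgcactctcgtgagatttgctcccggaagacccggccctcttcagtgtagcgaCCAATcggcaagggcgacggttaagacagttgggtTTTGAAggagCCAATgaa
Mcm5, chr8:75109349-75109508, plus strand: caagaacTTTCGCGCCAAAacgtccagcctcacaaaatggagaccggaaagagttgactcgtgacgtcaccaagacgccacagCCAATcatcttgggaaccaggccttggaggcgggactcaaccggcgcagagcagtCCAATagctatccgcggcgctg
Mcm6, chr1:128359706-128359825, minus strand: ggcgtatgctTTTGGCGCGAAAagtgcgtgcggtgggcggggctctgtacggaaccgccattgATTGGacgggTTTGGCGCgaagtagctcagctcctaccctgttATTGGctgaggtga
Mastl, chr2:23156025-23156144, minus strand: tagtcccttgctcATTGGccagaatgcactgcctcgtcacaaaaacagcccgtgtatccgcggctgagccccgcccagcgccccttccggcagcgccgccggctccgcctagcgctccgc
Cdc7, chr5:106964202-106964321, plus strand: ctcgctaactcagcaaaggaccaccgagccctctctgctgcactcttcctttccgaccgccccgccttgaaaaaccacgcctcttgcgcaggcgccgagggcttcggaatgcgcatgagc
Cdk1 is the only mitotic member of the 22 whose window held the E2F letters. Mastl held a CCAAT box and neither of the other elements. The Cdc7 stretch, from the first of its 2 listed starts, held none of the 3, and a CHR core lay 2 bases after that start. A gene with several listed starts was counted where any of its windows held the letters.

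Total counts per library ran from 54.7 to 491.1 in units of 1e6 counts, with a median of 92.4. Levels are given as CPM, counts scaled to a common library size per 1e6. Adra2a itself was scarce, with 0.0917 to 0.293 CPM in the KO libraries and 0.286 to 0.589 CPM in the WT libraries, ranges that overlap slightly. Epithelial markers that would define a colon carcinoma were close to absent: Epcam lay between 0.375 and 2.75 CPM, Krt8 between 0.103 and 0.45 CPM, and Cdx2 did not pass the filter. The mean of the Y-linked genes Uty, Ddx3y and Eif2s3y exceeded 1 CPM in 0 of 3 KO-Clonidine, 2 of 3 KO-Guanabenz, 2 of 3 KO-Control, 2 of 3 WT-Clonidine, 2 of 3 WT-Guanabenz and 3 of 3 WT-Control libraries.

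Levels of the members differed widely between genes and moved little between groups. Per kb of the longest annotated transcript, Pcna, the sliding clamp of the replication fork, had the highest mean level with 162 CPM per kb. Top2a, the topoisomerase that untangles chromosomes, followed with 85.1 CPM per kb and Rrm2, the regulated subunit of ribonucleotide reductase, with 76.6 CPM per kb. Mastl was lowest with 4.98 CPM per kb. The spread within groups, as an SD of log2 CPM, was smallest for Mastl and Kif23 at 0.07 and largest for Ccne2 at 0.28 and Mcm5 at 0.23.

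The S phase and mitotic classes kept different balances in the 2 genotypes. The mean log2 CPM of the 18 S phase members minus that of the 26 mitotic members was 0.13, −0.01 and 0.09 in KO-Clonidine, −0.02, 0.00 and 0.03 in KO-Guanabenz, and −0.01, −0.04 and −0.04 in KO-Control. It was 0.26, 0.17 and 0.24 in WT-Clonidine, 0.17, 0.17 and 0.08 in WT-Guanabenz, and 0.06, 0.18 and 0.13 in WT-Control. The mean was 0.02 ± 0.06 over the 9 KO libraries and 0.16 ± 0.07 over the 9 WT libraries (SD). Within each treatment the KO libraries all lay below the WT libraries of the same treatment, and over all treatments the ranges overlapped, from −0.04 to 0.13 in KO and from 0.06 to 0.26 in WT. A scaling factor of a library shifts both classes alike and so cancels in this difference. A related value is the median log2 change of the S phase members minus that of the mitotic members. For KO against WT averaged over the treatments it was −0.13, and it stayed between −0.15 and −0.12 over the alternative settings. No p-value is attached to a score over members.

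**Figure D2:**
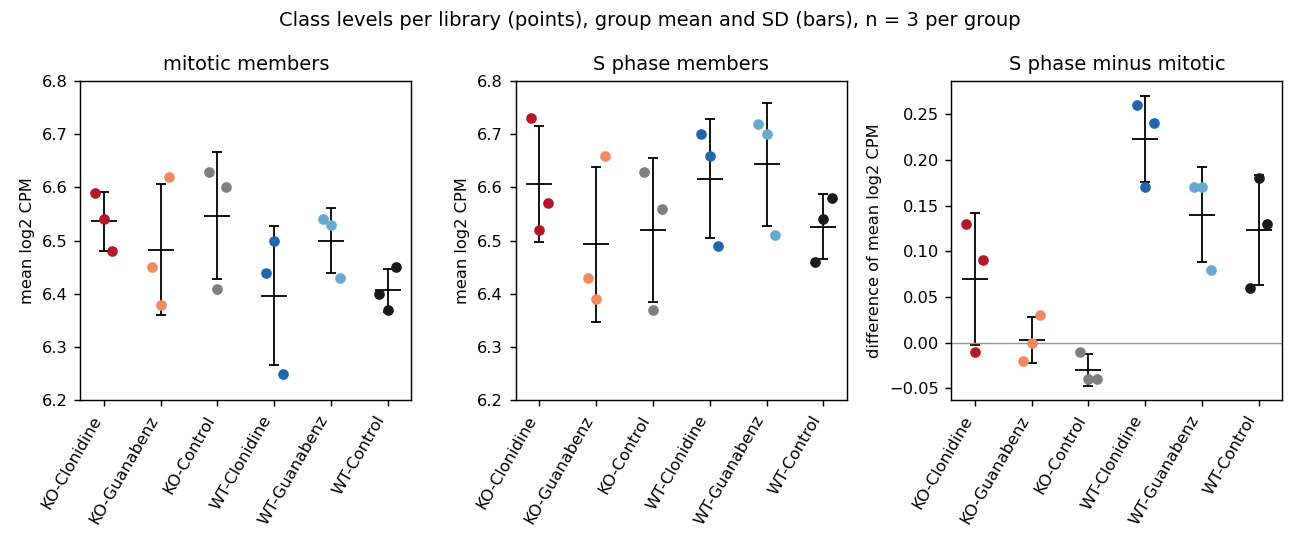
Mean log2 CPM of the 26 mitotic members (left), of the 18 S phase members (middle) and their difference (right) in each library (points) by group (x axis), with the group mean and SD (bars, n = 3). The first pair of panels share a scale that does not start at 0. In the right panel the KO groups have means of 0.07, 0.01 and −0.03 and the WT groups 0.22, 0.14 and 0.12.

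The class levels themselves moved little between groups. The mitotic class averaged 6.54 ± 0.06 in KO-Clonidine, 6.49 ± 0.12 in KO-Guanabenz and 6.55 ± 0.12 in KO-Control, against 6.40 ± 0.13 in WT-Clonidine, 6.50 ± 0.06 in WT-Guanabenz and 6.41 ± 0.04 in WT-Control (log2 CPM, SD, n = 3 each). The S phase class averaged 6.61 ± 0.11 in KO-Clonidine, 6.49 ± 0.14 in KO-Guanabenz and 6.52 ± 0.13 in KO-Control, against 6.62 ± 0.11 in WT-Clonidine, 6.64 ± 0.11 in WT-Guanabenz and 6.53 ± 0.06 in WT-Control. The difference between the classes varied less within groups (pooled SD 0.05) than either class did (0.10 and 0.11).

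Cdc7, the kinase that switches on loaded replication origins, was the only member whose level changed past the threshold of adjusted p under 0.05 in any of the 13 comparisons (edgeR quasi-likelihood test, Benjamini-Hochberg adjustment over 16125 genes). It lies on chromosome 5 between 106964315 and 106984440 (GRCm38, gene 12545). Its level was 27.4, 29.8 and 29.8 CPM in KO-Clonidine, against 37.8, 39.7 and 39.8 CPM in WT-Clonidine. The KO libraries lay in a narrow band below every WT-Clonidine library. The log2 change was −0.43 (SE 0.08, adjusted p = 0.0200), so Cdc7 fell to 0.742 of its WT-Clonidine level. It was the 1 member called of 44, in a comparison where 2.5% of all tested genes were called.

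Cdc7 was high in WT-Guanabenz as well. Cdc7 had 24.3, 28.8 and 29.5 CPM in KO-Guanabenz and 28.4, 29.0 and 31.3 CPM in KO-Control, against 36.7, 36.3 and 40.2 CPM in WT-Guanabenz and 28.1, 32.4 and 28.5 CPM in WT-Control. The WT libraries under either drug were the 6 highest of the 18, and WT-Control lay between 28.1 and 32.4 CPM, overlapping the KO groups. Averaged over the treatments, the log2 change of KO against WT was −0.30 (SE 0.05, adjusted p = 0.0156), with 0.416% of all genes called. Against WT-Control the log2 differences were 0.40 in WT-Clonidine (SE 0.08, adjusted p = 0.0854) and 0.35 in WT-Guanabenz (SE 0.08, adjusted p = 0.167), and neither passed. KO-Guanabenz against WT-Guanabenz gave −0.46 (adjusted p = 0.0807), and KO-Control against WT-Control −0.00 with a 95% interval from −0.17 to 0.16.

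The test of the drug effect between genotypes did not reach the threshold for Cdc7. The KO minus WT difference was −0.43 for clonidine (SE 0.11, unadjusted p = 0.00134, adjusted p = 0.381) and −0.45 for guanabenz (SE 0.11, unadjusted p = 0.000836, adjusted p = 0.836). The call in KO-Clonidine against WT-Clonidine was lost when single libraries were left out. The adjusted p was then 0.0524 without KO-Clonidine 1, 0.0712 without KO-Clonidine 3, 0.0684 without WT-Clonidine 2 and 0.0803 without WT-Clonidine 3, with log2 changes between −0.45 and −0.39. It was 0.065 with the compared groups fitted alone. The genotype average lost its call with KO-Guanabenz left out (−0.21, adjusted p = 0.0829) or read as KO-Control (−0.24, adjusted p = 0.166). Both settings also took WT-Guanabenz, where Cdc7 was high, out of the average, so the loss cannot be laid on KO-Guanabenz alone.

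Markers of other cell types differed between the groups in which Cdc7 differed. Of 9 T cell markers tested, 9 had lower values in KO-Clonidine than in WT-Clonidine (2 passed the test), with a median log2 difference of −0.89; their summed level was 24.3 to 36.8 CPM in KO-Clonidine and 44.4 to 58.4 CPM in WT-Clonidine. In WT-Guanabenz, where Cdc7 was equally high, the summed T cell level was 22.1 to 40.9 CPM, against 26.6 to 36.0 CPM in WT-Control. The 5 erythroid markers tested summed to 405 to 1617 CPM in KO-Clonidine and 88.8 to 177 CPM in WT-Clonidine, with a median log2 difference of 3.37. The part of either in the differences of Cdc7 and of the other members between these groups was not tested. The 3 Y-linked genes averaged 0.133 to 0.151 CPM in the KO-Clonidine libraries and 7.84, 8.6 and 0.19 CPM in WT-Clonidine. Their level thus differed between these groups as well, and the part of host sex in the member values was not tested.

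**Figure D3:**
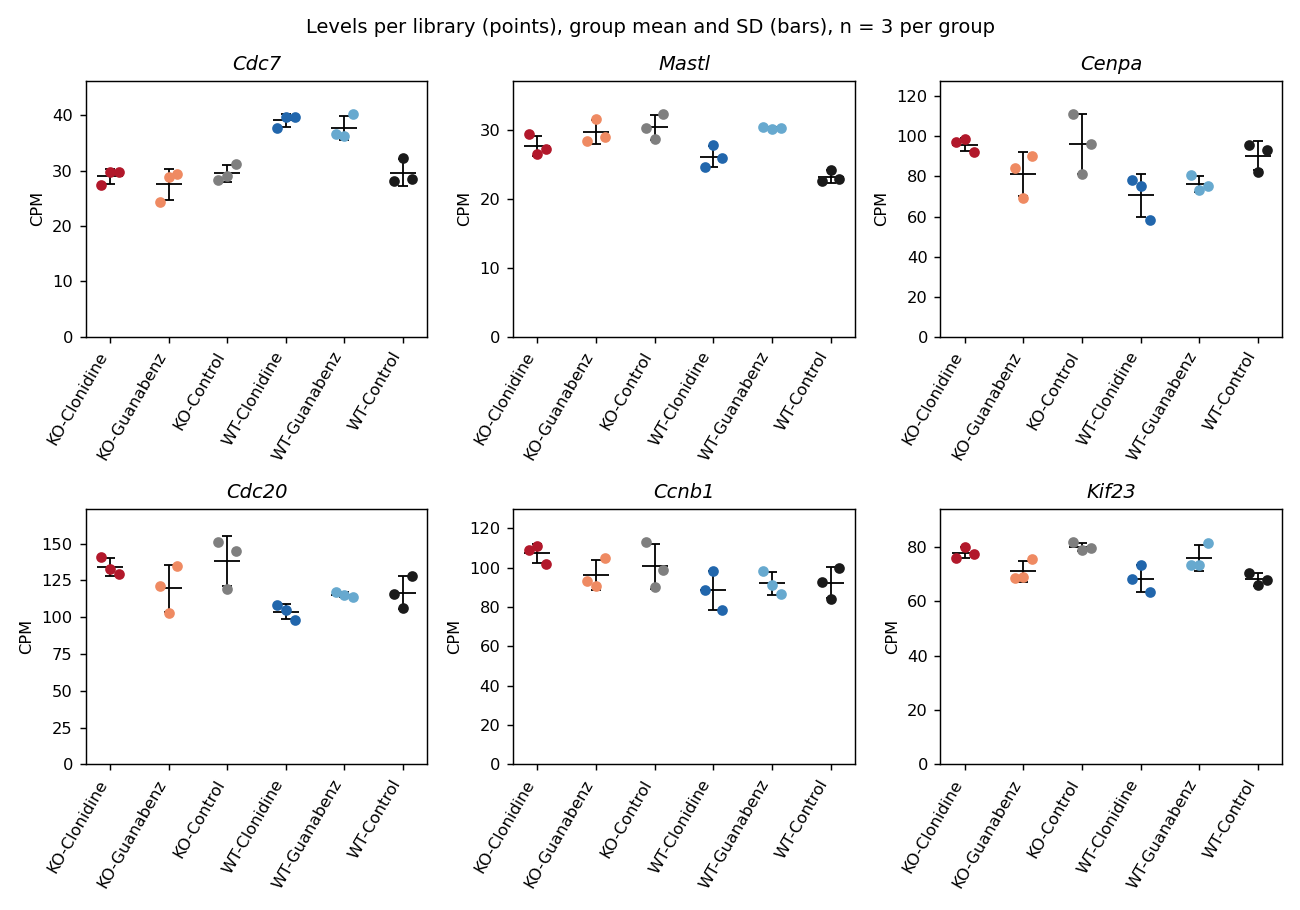
CPM (y axis, from 0) of Cdc7, Mastl, Cenpa, Cdc20, Ccnb1 and Kif23 in each library (points) by group (x axis), with the group mean and SD (bars, n = 3). Cdc7 stands near 38 to 39 CPM only in the drug-treated WT groups (means 39.1 and 37.8 CPM), and Mastl is lowest in WT-Control (mean 23.2 CPM).

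Mitotic members were mostly higher in KO tumours than in WT tumours under PBS and under clonidine, by small amounts that did not pass the test gene by gene. In KO-Control against WT-Control 25 of the 26 mitotic members had a positive log2 difference, with a median of 0.14, against 0.00 over all genes tested. Birc5, a subunit of the chromosomal passenger complex, was the exception at −0.01. Of the 18 S phase members 6 were positive, with a median of −0.01. Members are read in the same libraries, so their signs are not independent, here and in every count of signs below. The mitotic class level was 6.63, 6.41 and 6.60 in KO-Control and 6.40, 6.37 and 6.45 in WT-Control (log2 CPM), and the groups overlapped. With edgeR 0 of the 44 members were called (0.0062% of all genes were), DESeq2 called 1 (Mastl; 0.105% of all genes) and limma-voom 0 (0.0062%). At an unadjusted p under 0.05, 5 members were higher and 0 lower, all mitotic, where 2.25% of all genes were higher and 1.43% lower. Values did not overlap between the groups and were higher for 8 members, all mitotic, and lower for 0, where the same held for 4.56% and 3.77% of all genes.

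Mastl, the Greatwall kinase that keeps phosphatase PP2A in check during mitosis, had the smallest p among the members in that comparison. Its level was 30.2, 28.6 and 32.2 CPM in KO-Control, against 22.5, 24.2 and 22.9 CPM in WT-Control. Every KO-Control library lay above every WT-Control library. The log2 difference was 0.38 (SE 0.07, 95% interval 0.25 to 0.52, adjusted p = 0.121; DESeq2 adjusted p = 0.00018), and it was called at 0.37 (adjusted p = 0.045) when KO-Guanabenz was read as KO-Control. Mastl (chromosome 2, 23116539 to 23156024) overlaps Yme1l1 at its start, and the strand setting of the libraries is not stated, so reads of the pair cannot be told apart where they share sequence. Cdc20 overlaps Elovl1 with the same limit. The limit also holds for Ccna2, Aurka, Kif20a, Nusap1, Anln, Mcm7, Cdc45, Gins2 and Ccne2, which overlap other genes that were counted. The part of these neighbours in the member values was not tested.

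The next members in KO-Control against WT-Control were proteins of the spindle and of anaphase. Kif23, a kinesin of the central spindle, had 81.7, 78.9 and 79.5 CPM in KO-Control, against 70.5, 65.8 and 67.8 CPM in WT-Control. The log2 difference was 0.23 (SE 0.06, adjusted p = 0.962). Nusap1, which bundles spindle microtubules, differed by 0.24, Tpx2, the activator of Aurora A on the spindle, by 0.21 and Cdc20, the activator of the anaphase-promoting complex, by 0.25, all with an adjusted p of 1. By role, all 8 entry kinases and cyclins and all 8 motor, spindle and cytokinesis genes were positive, with medians of 0.17 and 0.15, and all 4 genes of origin loading and firing were negative, with a median of −0.03.

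In KO-Clonidine against WT-Clonidine 23 of 26 mitotic members were positive (median 0.13) and 9 of 18 S phase members (median 0.01). The mitotic class level overlapped, at 6.48 to 6.59 log2 CPM in KO-Clonidine and 6.25 to 6.50 in WT-Clonidine. Apart from Cdc7, the smallest p-values were those of Cdc20 and Cenpa. Cdc20 had 141, 133 and 129 CPM in KO-Clonidine, against 108, 105 and 98.3 CPM in WT-Clonidine (log2 difference 0.37, SE 0.10, adjusted p = 0.0551). Cenpa, the histone H3 variant that marks centromeres, had 97.2, 98.5 and 92.1 CPM in KO-Clonidine, against 78.1, 75 and 58.5 CPM in WT-Clonidine (0.44, SE 0.12, adjusted p = 0.0591). Neither pair of groups overlapped, and both genes missed the threshold in the edgeR fit while DESeq2 (adjusted p = 0.0101 and 0.0109) and limma-voom (0.0219 and 0.0386) called them, in fits that called 7.12% and 7.85% of all genes. In all, 11 members did not overlap between the groups and were higher, 10 of them mitotic, and 1 (Cdc7) was lower, where the same held for 14.2% and 12.8% of all genes. At an unadjusted p under 0.05, 7 members, all mitotic, were higher and 1 was lower, where 11.1% and 8.48% of all genes were.

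Ccnb1, the B cyclin of mitotic entry, had 109, 111 and 102 CPM in KO-Clonidine, against 88.7, 98.2 and 78.5 CPM in WT-Clonidine (log2 difference 0.28, SE 0.09, adjusted p = 0.118). Kif23 had 76.0, 80 and 77.5 CPM in KO-Clonidine, against 68.1, 73.4 and 63.3 CPM in WT-Clonidine (0.19, SE 0.06, adjusted p = 0.109). Both genes separated the groups completely. The chromosome genes Mki67 (−0.01) and Top2a (0.02), common proliferation markers, had differences near 0. Scaled by total counts instead, the mitotic median of this comparison was 0.04 and the S phase median −0.07, and 17 of 26 mitotic and 5 of 18 S phase members were positive.

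In KO-Guanabenz against WT-Guanabenz the S phase members were all negative and the mitotic members were mixed. Of the mitotic members 11 of 26 were positive (median −0.01) and of the S phase members 0 of 18 (median −0.13), against a median of −0.01 over all genes. edgeR called 0 members (0.0186% of all genes), DESeq2 called 1 (Cdc7; 0.0868% of all genes) and limma-voom 0 (0.0124%); at an unadjusted p under 0.05, 5 members were lower and 0 higher, where 4.53% of all genes were lower and 3.63% higher. Those 5 were Cdc7, Slbp, Tyms, Mki67 (−0.18) and Ccne1 (−0.26). Values were lower without overlap for 3 members (Cdc7, Tyms and Mki67) and higher for 0, where the same held for 6.06% and 6.26% of all genes. Tyms, thymidylate synthase, had 57.7, 50.3 and 65.7 CPM in KO-Guanabenz, against 71.6, 69.1 and 67.7 CPM in WT-Guanabenz (−0.26, SE 0.10, adjusted p = 0.565). Slbp, which binds the stem-loop of histone mRNAs, differed by −0.20 (SE 0.08, adjusted p = 0.565).

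Averaged over the treatments, 23 of 26 mitotic members were positive (median 0.10) and 4 of 18 S phase members (median −0.03). With an unadjusted p under 0.05, 11 mitotic members were higher (9.65% of all genes were) and 1 S phase member, Cdc7, was lower (7.78% of all genes were). edgeR called 1 member, Cdc7, DESeq2 called 3 (also Cdc20 and Mastl) and limma-voom 2 (also Cdc20), where DESeq2 called 3.73% and limma-voom 2.24% of all genes. With KO-Guanabenz left out or read as KO-Control, 26 of 26 mitotic and 10 of 18 S phase members were positive, and the S phase median was 0.01 in both cases. Both settings also took WT-Guanabenz out of this average, and in the second KO-Guanabenz stayed in the KO mean as part of KO-Control. The lower S phase values in this average thus depended on how the guanabenz groups entered it. These settings do not separate the part of KO-Guanabenz, the group with conflicting treatment labels, from that of WT-Guanabenz. With total-count scaling 18 of 26 mitotic and 0 of 18 S phase members were positive, with medians of 0.06 and −0.08. The members nearest to the threshold were Cdc20 with 0.22 (SE 0.06, adjusted p = 0.0781), Mastl with 0.15 (SE 0.04, adjusted p = 0.0809), Kif4, a chromosome kinesin, with 0.14 (adjusted p = 0.139) and Cenpa with 0.21 (adjusted p = 0.145). The comparison under PBS, the comparison under clonidine and that under guanabenz share no libraries with each other, but each enters this average.

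**Figure D4:**
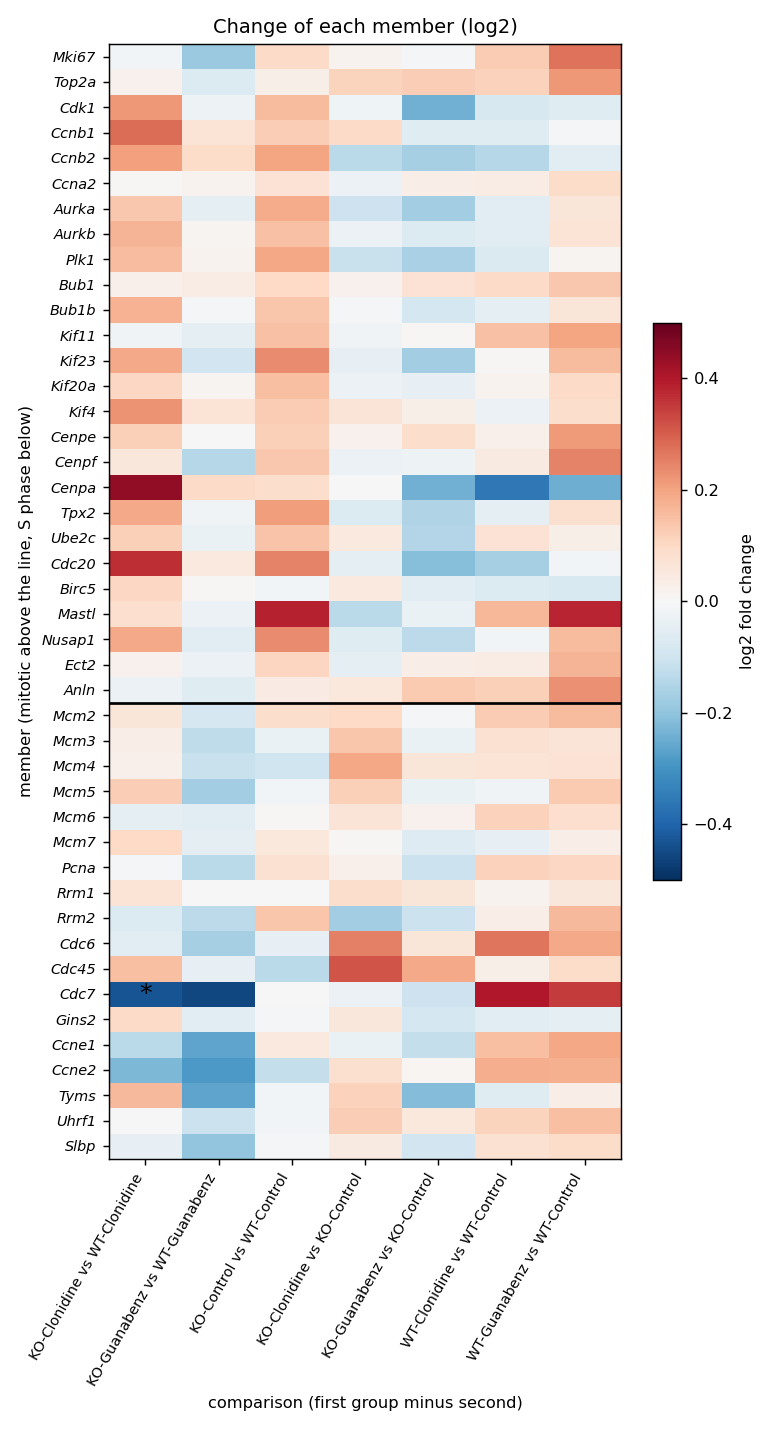
Log2 fold change (colour, red for higher and blue for lower in the group named first) of each member (rows, mitotic above the line and S phase below it) in 7 comparisons (columns). The asterisk marks the 1 change in these columns with an adjusted p under 0.05, Cdc7 in KO-Clonidine against WT-Clonidine at −0.43.

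In wild-type hosts under clonidine the mitotic members were spread evenly around no change, while most S phase members were slightly higher. Against WT-Control, 13 of 26 mitotic members were positive in WT-Clonidine (median −0.00) and 14 of 18 S phase members (median 0.08), against a median of 0.00 over all genes. edgeR called 0 members and 0% of all genes, while DESeq2 and limma-voom each called 1, Cdc7 (adjusted p = 0.00122 and 0.00704), as did edgeR without WT-Control 2 (0.47, adjusted p = 0.0401). DESeq2 called 2.19% and limma-voom 4.79% of all genes there. At an unadjusted p under 0.05, 3 members were higher (5.98% of all genes were) and 1 was lower (6.91%). Values were higher without overlap for 4 members and lower for 1, where the same held for 11.1% and 9.81% of all genes. The 3 higher members at that p were Cdc7, Mastl (0.17, SE 0.07, adjusted p = 0.29) and Cdc6, which loads the MCM helicase.

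Cdc6 had 42.4, 42.9 and 38.4 CPM in WT-Clonidine, against 31.9, 35.1 and 35.9 CPM in WT-Control (0.27, SE 0.11, adjusted p = 0.307). The lower one was Cenpa, with 78.1, 75 and 58.5 CPM in WT-Clonidine, against 95.8, 82.0 and 93.2 CPM in WT-Control (−0.36, SE 0.12, adjusted p = 0.224). Cdc20 had a log2 difference of −0.17 (adjusted p = 0.493). In this comparison 9 of 9 T cell markers were higher in WT-Clonidine, with a median of 0.84, and 8 of them had an unadjusted p under 0.05; their part in the member values was not tested.

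In wild-type hosts under guanabenz most members of both classes had small positive differences, while the class levels overlapped. Against WT-Control, 20 of 26 mitotic members (median 0.09) and 17 of 18 S phase members (median 0.10) were positive in WT-Guanabenz, against a median of 0.01 over all genes. The mitotic level was 6.54, 6.53 and 6.43 in WT-Guanabenz and 6.40, 6.37 and 6.45 in WT-Control (log2 CPM). The S phase level was 6.72, 6.70 and 6.51 in WT-Guanabenz and 6.46, 6.54 and 6.58 in WT-Control. In both classes WT-Guanabenz 3 lay below WT-Control 3. edgeR called 0 members and 0% of all genes, DESeq2 called 3 members (Mastl, Cdc7 and Mki67) and 1.07% of all genes, and limma-voom 0 members and 0.0372%. At an unadjusted p under 0.05, 9 members were higher and 0 lower, where 5.18% of all genes were higher and 6.26% lower. Values were higher without overlap for 9 members and lower for 1 (Cenpa), where the same held for 6.41% and 8.19% of all genes. The same WT-Control libraries serve in the comparisons of WT-Clonidine and of KO-Control, so a low or high value there enters all 3.

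Mastl had 30.4, 30.1 and 30.3 CPM in WT-Guanabenz, far closer together than in any other group, though 3 libraries estimate a spread poorly. All of these values lay above every WT-Control library (log2 difference 0.38, SE 0.07, edgeR adjusted p = 0.141, DESeq2 adjusted p = 0.000382). Its level in WT-Clonidine was 24.6, 27.7 and 25.9 CPM. WT-Control was thus the lowest group of the 6 for Mastl. Mki67, the antigen of the Ki-67 stain, had 352, 355 and 322 CPM in WT-Guanabenz, against 295, 284 and 273 CPM in WT-Control (0.27, SE 0.08, adjusted p = 0.217). Cenpf and Cenpe, large proteins of the kinetochore, differed by 0.25 and 0.21 (adjusted p = 0.237 and 0.255). These 3 are long transcripts, and once each library's trend with transcript length was taken out the differences were 0.13 for Mki67, 0.10 for Cenpf and 0.10 for Cenpe, while Mastl kept 0.32. All 8 motor, spindle and cytokinesis members were positive, led by the contractile ring protein Anln at 0.23.

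In KO hosts neither drug moved a member past the threshold. In KO-Clonidine against KO-Control, 9 of 26 mitotic members (median −0.02) and 15 of 18 S phase members (median 0.08) were positive. edgeR, DESeq2 and limma-voom called 0 members each, where they called 0.0186%, 0.18% and 0.0186% of all genes. At an unadjusted p under 0.05, 2 members were higher, Cdc45 and Cdc6, and 0 lower, where 2.74% and 2.78% of all genes were. Values were higher without overlap for 2 members and lower for 0, where this held for 4.4% and 4.43% of all genes. Cdc45, part of the active helicase, had 67.3, 56.6 and 57.9 CPM in KO-Clonidine, against 54.7, 40.2 and 51.2 CPM in KO-Control (0.31, SE 0.10, adjusted p = 0.814). Cdc6 had 41.6, 37.7 and 39.8 CPM in KO-Clonidine, against 36.9, 31.0 and 32.1 CPM in KO-Control (0.25, SE 0.11, adjusted p = 0.901). Both genes kept the KO-Clonidine libraries above all KO-Control libraries. Mcm4 (0.19), Rrm2 (−0.17) and Mastl (−0.14) came next. All 6 MCM genes were positive, between 0.00 (Mcm7) and 0.19 (Mcm4), with a median of 0.11. The 5 erythroid markers were higher in KO-Clonidine than in KO-Control, with a median of 2.01, and their part in these values was not tested.

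In KO-Guanabenz against KO-Control, 8 of 26 mitotic members (median −0.06) and 7 of 18 S phase members (median −0.03) were positive. edgeR, DESeq2 and limma-voom called 0 members each, where they called 0.0124%, 2.75% and 2.13% of all genes. At an unadjusted p under 0.05, 4 members were lower (Kif23, Cdk1, Cdc20 and Tyms) and 0 higher, where 8.37% and 6.74% of all genes were. Values were higher without overlap for 1 member (Cenpe) and lower for 1 (Kif23), where the same held for 9.09% and 10.5% of all genes. Both KO drug comparisons use the same KO-Control libraries. The 6 fibroblast markers were all higher in KO-Guanabenz (median 0.46, 4 at an unadjusted p under 0.05) and summed to 17550 to 19157 CPM in KO-Guanabenz and 11664 to 16236 CPM in KO-Control. The 5 skeletal muscle markers were all lower (4 at an unadjusted p under 0.05), with sums of 35.3 to 92.8 CPM in KO-Guanabenz and 97.3 to 164 CPM in KO-Control. The part of either in the member values was not tested. Kif23 had 68.6, 68.8 and 75.5 CPM in KO-Guanabenz, below all KO-Control libraries (−0.17, SE 0.06, adjusted p = 0.215). Cdk1, the kinase of mitotic entry, had 101, 98.3 and 129 CPM in KO-Guanabenz, against 130, 129 and 129 CPM in KO-Control (−0.24, SE 0.09, adjusted p = 0.218). KO-Guanabenz 3 matched the controls, and without it Cdk1 was called (−0.38, adjusted p = 0.038). Cdc20 differed by −0.21, Tyms by −0.22 and Cenpa by −0.24 (adjusted p = 0.318, 0.326 and 0.359).

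The difference between the genotypes in the guanabenz effect was negative for 24 of 26 mitotic and 16 of 18 S phase members, each with a median of −0.14, against −0.01 over all genes. With limma-voom the mitotic median was −0.24. The 6 fibroblast markers had the opposite sign, 6 of 6 positive with a median of 0.55 and 4 at an unadjusted p under 0.05, and their part was not tested. Mastl led with −0.42 (SE 0.09, unadjusted p = 0.000359, adjusted p = 0.527), followed by Cdc7, Kif23 with −0.33 (SE 0.09, adjusted p = 0.836), Cenpf with −0.27 and Mki67 with −0.28 (adjusted p = 0.866 each). edgeR called 0 members (0.0062% of all genes), DESeq2 called 1 (Mastl, adjusted p = 0.043; 0.0806% of all genes) and limma-voom 0 (0.0124%), with 6 members lower and 0 higher at an unadjusted p under 0.05, where 3.13% and 2.58% of all genes were. For clonidine the same difference had medians of −0.03 (mitotic) and −0.00 (S phase). There edgeR, DESeq2 and limma-voom called 0 members each, where they called 0%, 0.205% and 0.0124% of all genes. Cdc7 and Mastl (−0.30, SE 0.09, adjusted p = 0.424) were the 2 members lower at an unadjusted p under 0.05, with 0 higher, where 4.07% and 4.87% of all genes were. Cenpa (0.35), Cdc45 (0.28) and Rrm2 (−0.21) came next.

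Averaged over the genotypes, guanabenz gave 0 member calls with edgeR where 2.05% of all genes were called; DESeq2 called 2 members (Mastl and Cenpe) and 7.33% of all genes, and limma-voom 5 members and 9.95%. With an unadjusted p under 0.05, 7 members were higher and 2 lower, where 9.13% of all genes were higher and 10.7% lower. Mastl had 0.17 (SE 0.05, adjusted p = 0.0568), Cenpe 0.15 (SE 0.05, adjusted p = 0.0876), Anln 0.18 (adjusted p = 0.17), Mki67 0.13 (adjusted p = 0.176) and Cenpa −0.24 (SE 0.09, adjusted p = 0.128). With each library's trend with transcript length taken out, Mki67 had 0.01 (adjusted p = 0.979), Cenpe 0.04 (adjusted p = 0.68), Mastl 0.11 (adjusted p = 0.327), Anln 0.14 (adjusted p = 0.416) and Cenpa −0.26 (adjusted p = 0.215). Cenpa had −0.24 in KO and −0.25 in WT hosts without that step. The 5 skeletal muscle markers were all negative in this average, with a median of −0.66 and 4 at an unadjusted p under 0.05, and their part was not tested.

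Between the drugs, in hosts of the same genotype, no member differed past the threshold. In WT hosts 24 of 26 mitotic members were lower under clonidine than under guanabenz (median −0.11), with 12 of 18 S phase members lower (median −0.02). edgeR, DESeq2 and limma-voom called 0 members each, where they called 0%, 0.0248% and 0.0062% of all genes. At an unadjusted p under 0.05, 4 members were lower and 0 higher, where 2.48% and 2.57% of all genes were. Values were lower without overlap for 5 members and higher for 0, where the same held for 3.74% and 5.33% of all genes. Mastl differed by −0.22 (95% interval −0.35 to −0.08, adjusted p = 0.957), with all WT-Clonidine libraries below all WT-Guanabenz libraries. Cenpf, Cenpe, Kif23 and Mki67 differed by −0.20, −0.19, −0.15 and −0.15, each with an adjusted p of 0.957. With the trend with transcript length taken out, Mki67 had −0.08, Cenpf −0.12 and Cenpe −0.14. In this comparison 9 of 9 T cell markers (median 0.60, 5 at an unadjusted p under 0.05) and 5 of 5 endothelial markers (median 0.33, 4 at an unadjusted p under 0.05) were higher in WT-Clonidine, and their part was not tested. Cdc7 differed by 0.05, with a 95% interval from −0.12 to 0.21.

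In KO hosts 17 of 26 mitotic and 17 of 18 S phase members were higher under clonidine than under guanabenz (medians 0.04 and 0.12). Tyms had 75.3, 73.8 and 69.5 CPM in KO-Clonidine, above all KO-Guanabenz libraries (0.33, SE 0.10, 95% interval 0.12 to 0.55, adjusted p = 0.137). edgeR called 0 members (0% of all genes), while DESeq2 and limma-voom each called 1, Tyms (adjusted p = 0.0483 and 0.0398), where they called 3.67% and 3.11% of all genes. Without KO-Guanabenz 3, edgeR called Tyms (0.43, adjusted p = 0.0493) and Cdk1 (0.35, adjusted p = 0.034). At an unadjusted p under 0.05, 5 members were higher and 0 lower, where 8.97% and 6.41% of all genes were. Values were higher without overlap for 4 members and lower for 0, where the same held for 11.5% and 8.64% of all genes. After Tyms the members with the smallest p were Cdk1 (0.22), the anaphase ubiquitin-conjugating enzyme Ube2c (0.20), the GINS subunit Gins2 (0.14) and Kif23 (0.13).

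The other S phase members differed by small amounts against a wide spread within groups. Mcm5, a subunit of the helicase, had 215, 171 and 176 CPM in KO-Clonidine, 170, 142 and 192 CPM in KO-Guanabenz and 196, 144 and 175 CPM in KO-Control, against 195, 178 and 142 CPM in WT-Clonidine, 206, 221 and 143 CPM in WT-Guanabenz and 162, 163 and 196 CPM in WT-Control. Mcm2 had 184, 151 and 164 CPM in KO-Clonidine, 151, 144 and 167 CPM in KO-Guanabenz and 170, 140 and 155 CPM in KO-Control, against 171, 163 and 144 CPM in WT-Clonidine, 167, 180 and 143 CPM in WT-Guanabenz and 137, 144 and 158 CPM in WT-Control. In every comparison made, the groups overlapped for both genes. Rrm2 had 181, 144 and 148 CPM in KO-Clonidine, 162, 155 and 178 CPM in KO-Guanabenz and 187, 168 and 179 CPM in KO-Control, against 162, 166 and 169 CPM in WT-Clonidine, 174, 160 and 207 CPM in WT-Guanabenz and 154, 154 and 176 CPM in WT-Control. It overlapped as well.

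Pcna had 257, 254 and 249 CPM in KO-Clonidine, 213, 223 and 258 CPM in KO-Guanabenz and 254, 236 and 256 CPM in KO-Control, against 279, 264 and 223 CPM in WT-Clonidine, 254, 257 and 249 CPM in WT-Guanabenz and 223, 242 and 243 CPM in WT-Control. WT-Guanabenz lay above WT-Control without overlap. Tyms had 71.8, 60.2 and 70.0 CPM in KO-Control, against 72.9, 68.0 and 54.5 CPM in WT-Clonidine and 69.2, 67.6 and 67.1 CPM in WT-Control. The lowest Tyms values were 50.3 CPM in KO-Guanabenz 2 and 54.5 CPM in WT-Clonidine 3.

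The E cyclins, which start S phase with Cdk2, were low and spread widely. Ccne2 had 33.6, 24.5 and 26.3 CPM in KO-Clonidine, 22.0, 22.7 and 35.5 CPM in KO-Guanabenz and 27.6, 20.3 and 31.7 CPM in KO-Control, against 32.6, 34.4 and 31.2 CPM in WT-Clonidine, 40.5, 32.8 and 25.1 CPM in WT-Guanabenz and 24.9, 31.1 and 30.6 CPM in WT-Control. Ccne1 had 28.0, 22.6 and 28.7 CPM in KO-Clonidine, 22.3, 23.2 and 29.2 CPM in KO-Guanabenz and 27.6, 23.7 and 29.8 CPM in KO-Control, against 30.8, 30.3 and 25.9 CPM in WT-Clonidine, 33.2, 27.3 and 29.3 CPM in WT-Guanabenz and 24.3, 26 and 28.1 CPM in WT-Control. Averaged over the treatments, KO minus WT was −0.21 for Ccne2 and −0.12 for Ccne1, and neither passed. WT-Clonidine lay above WT-Control for Ccne2 and overlapped it for Ccne1. KO-Guanabenz 3 was the highest of its group for both E cyclins, as it was for Cdc6 (31.7, 30.9 and 41.9 CPM), Tyms and Cdk1.

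**Figure D5:**
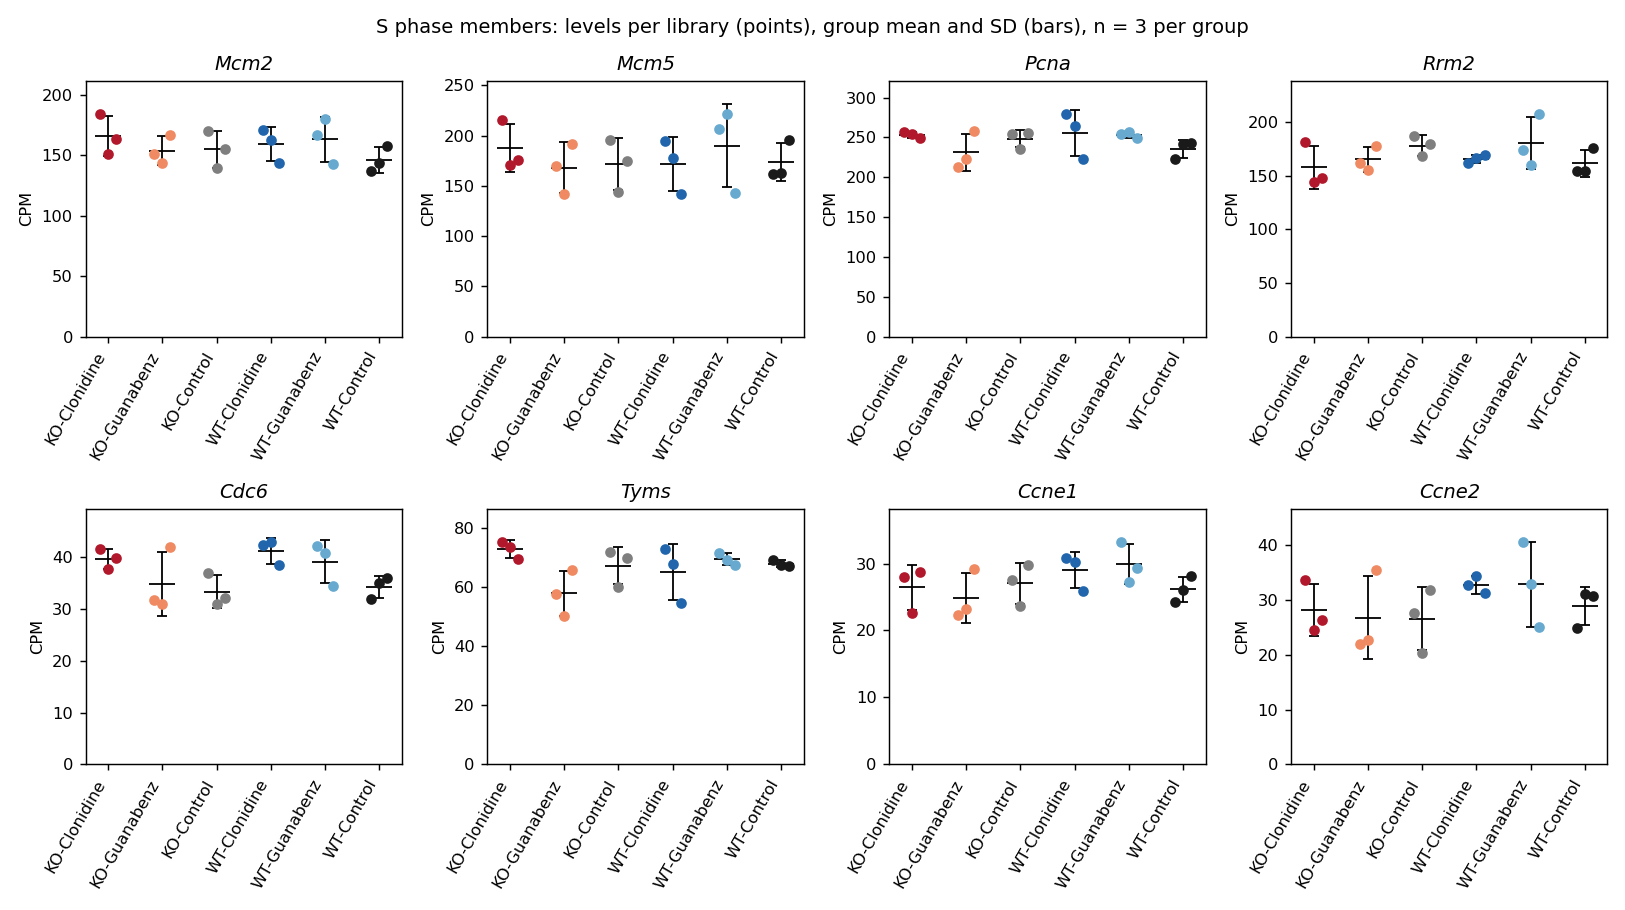
CPM (y axis, from 0) of 8 S phase members in each library (points) by group (x axis), with the group mean and SD (bars, n = 3). The compared groups overlap for Mcm2, Mcm5, Rrm2 and Ccne1, while some do not for Pcna, Cdc6, Tyms and Ccne2. For Cdc6, WT-Clonidine at 38.4 to 42.9 CPM lies above WT-Control at 31.9 to 35.9 CPM.

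Among the mitotic members given in every library, Top2a had 492, 424 and 444 CPM in KO-Clonidine, 448, 426 and 497 CPM in KO-Guanabenz and 464, 375 and 420 CPM in KO-Control, against 460, 480 and 398 CPM in WT-Clonidine, 518, 501 and 417 CPM in WT-Guanabenz and 396, 420 and 419 CPM in WT-Control. Mki67 had 335, 312 and 274 CPM in KO-Clonidine, 304, 282 and 320 CPM in KO-Guanabenz, 305, 304 and 301 CPM in KO-Control and 299, 337 and 294 CPM in WT-Clonidine. Cdk1 had 131, 130 and 121 CPM in KO-Clonidine, against 114, 117 and 97.8 CPM in WT-Clonidine, 108, 113 and 114 CPM in WT-Guanabenz and 121, 112 and 115 CPM in WT-Control. Cdk1 in KO-Clonidine lay above WT-Clonidine without overlap and in KO-Control above WT-Control, and Top2a overlapped in every comparison made. Ccnb1 had 93.2, 90.8 and 105 CPM in KO-Guanabenz and 113, 90.3 and 98.8 CPM in KO-Control, against 98.3, 91.4 and 86.7 CPM in WT-Guanabenz and 92.8, 84.3 and 100 CPM in WT-Control, and overlapped.

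Genes of the same pathways outside the 44 gave few calls. In KO-Clonidine against WT-Clonidine the kinase Cdk4, partner of the D cyclins, rose (0.31, SE 0.08, adjusted p = 0.0464), as did the CDK inhibitor locus Cdkn2a (0.36, SE 0.08, adjusted p = 0.0253), the kinesin Kifc1 (0.31, SE 0.08, adjusted p = 0.0444) and Anapc16, a subunit of the anaphase-promoting complex (0.29, SE 0.06, adjusted p = 0.0285). These were 1 of 6 G1 cyclins and kinases, 1 of 7 CDK inhibitors, 1 of 16 kinesins and cytokinesis genes and 1 of 17 genes of the complex. Over all tested genes 2.5% were called in this comparison. Of 26 checkpoint and kinetochore genes outside the members 23 were positive (median 0.11) in that comparison and 25 in KO-Control against WT-Control (median 0.12), and 0 were called in either. At an unadjusted p under 0.05, 6 were higher in the first, where 11.1% of all genes were, and 5 in the second, where 2.25% were. Of 35 licensing and fork genes 25 and 27 were positive in the same comparisons, with medians of 0.03 and 0.04.

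Guanabenz against control, averaged over the genotypes, gave the other calls outside the members, where 2.05% of all genes were called. Lin54, a DNA-binding subunit of MuvB that reads the CHR, rose (0.23, SE 0.06, adjusted p = 0.0452), as did the citron kinase Cit of cytokinesis (0.25, SE 0.06, adjusted p = 0.034). Cdkn2a fell by 0.22 (SE 0.05, adjusted p = 0.0454) and Anapc16 fell by 0.22 (SE 0.04, adjusted p = 0.0271). In WT-Guanabenz against WT-Control alone, Cit (0.37) and Lin54 (0.36) each had an adjusted p of 0.167, Wee1, the inhibitory kinase of Cdk1, had 0.45 (adjusted p = 0.217) and the condensin subunit Ncapd3 had 0.32 (adjusted p = 0.167). There 14 of 16 cohesin and condensin genes (median 0.15) and 17 of 20 E2F, RB and MuvB genes (median 0.12) were positive. Of 17 genes of the anaphase-promoting complex 4 were (median −0.10). In each list 0 genes were called, and 0% of all genes were. Taking out the trend with transcript length lowered several member values in these comparisons. That step was not applied to the genes and lists of this paragraph.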

How the data were processed

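RNA was sequenced from 18 tumours' libraries, 3 in each of 6 groups. The authors deposited estimated counts per gene, whole numbers per Entrez identifier; per the submitters' processing notes the tools were Trim Galore 0.6.5 and kallisto 0.46.0 with GRCm38. How transcript estimates were summed to genes, and whether the libraries keep strand, is not stated. kallisto divides reads between near-identical sequences, and copies of the members were not checked. Groups come from the titles.

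The members and the other gene lists were chosen with earlier results of these data known. Of 21015 identifiers 20994 matched a RefSeq symbol, and 21 without one held at most 0.0216% of a library's counts. After edgeR's filterByExpr, 16125 genes were tested with edgeR 4.0.16 (TMM scaling, quasi-likelihood test, 6 group means over all 18 libraries, 12 residual degrees of freedom, Benjamini-Hochberg adjustment over all genes) in R 4.3.3. The biological coefficient of variation was 0.145. Log2 CPM used a prior count of 2. A class level is the mean log2 CPM of its members. Transcript length is that of the longest annotated transcript. DESeq2 1.42.0 and limma-voom with quality weights (limma 3.58.1) were alternatives. The fit was tested on simulated data. Library totals were 54.7 to 491.1 (1e6 counts). Counting error was not compared with the spread between libraries gene by gene, and it weighs more for scarce genes such as Adra2a. Intervals are 95% intervals of the fit.

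Named are, per comparison, the 5 members with the smallest unadjusted p and every member past the threshold of 0.05. A group of 13 members is given in every library. From the other lists, genes past the threshold are named, and otherwise those with the smallest p in drug comparisons.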

Additional observations from a re-analysis of the deposited data

How the results depend on the processing

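No called value changed direction. Of 506 class medians under alternatives, 26 had another sign than the reported one; the reported ones among these were at most 0.04 in size and the alternatives lay between −0.07 and 0.06. Of the results on member counts and class medians, 728 stayed within a set tolerance and 31 moved past it. The tolerance was a ratio of 1.5 for counts and the pooled SD within groups for medians (0.10 mitotic, 0.11 S phase). Many class medians are smaller than that SD, so the count of 728 does not show that a median kept its sign. With DESeq2 the members called numbered 3 in WT-Guanabenz against WT-Control, KO-Clonidine against WT-Clonidine and KO against WT averaged, 2 for guanabenz averaged, and 1 in WT-Clonidine against WT-Control, KO-Control against WT-Control, KO-Guanabenz against WT-Guanabenz, KO-Clonidine against KO-Guanabenz and the guanabenz effect between genotypes. With limma-voom they numbered 5 for guanabenz averaged, 3 in KO-Clonidine against WT-Clonidine, 2 in KO against WT averaged, and 1 in WT-Clonidine against WT-Control and KO-Clonidine against KO-Guanabenz, and the mitotic median of the guanabenz effect was −0.24. A mean CPM of at least 5 gave 2 for guanabenz averaged. The compared groups alone gave 0 in KO-Clonidine against WT-Clonidine. Leaving out KO-Guanabenz, or reading it as KO-Control, gave 0 in KO against WT averaged, and both also took WT-Guanabenz out of that average. Reading it as KO-Control gave 1 in KO-Control against WT-Control. Omitting single libraries gave 0 to 1 in KO-Clonidine against WT-Clonidine, WT-Clonidine against WT-Control and KO-Guanabenz against KO-Control, and 0 to 2 for guanabenz averaged and in KO-Clonidine against KO-Guanabenz. The causes were not tested. For the CPM filter, the compared groups alone, the KO-Guanabenz settings and the omissions, the shares of all genes called are not given. Those counts are thus not set against other genes.

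Replicate numbers are not stated to pair the samples. Of 45 pairs of same-numbered libraries 10 correlated above 0.1 in their deviations (range −0.331 to 0.253), and 5 of 18 libraries correlated best with their own number. In KO-Guanabenz, KO-Control, WT-Clonidine and WT-Guanabenz the Y-linked mean exceeded 1 CPM in replicates 1 and 2. It was 0.148 to 0.238 CPM in their replicate 3. The numbers thus followed the Y-linked level in these groups, and weak correlations cannot exclude a pairing. With a replicate block 3 members were called in KO-Clonidine against WT-Clonidine, Cenpa (adjusted p = 0.0481) and Cdc20 (0.0443) beside Cdc7. The share of all genes called with the block is not given, so this count is not set against other genes. Over all genes, edgeR, DESeq2 and limma-voom called 403, 1148 and 1266 genes in that comparison, and 0, 353 and 773 in WT-Clonidine against WT-Control. Guanabenz averaged gained Mastl without WT-Control 2 (adjusted p = 0.0454), and Cenpe (0.0291) and Anln (0.032) without WT-Guanabenz 3.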

Other observations

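Outside the members, edgeR called 0 genes of the other cell cycle lists in WT-Clonidine against WT-Control, as it called 0 genes in all (964 higher and 1115 lower at an unadjusted p under 0.05; DESeq2 called 353 genes and limma-voom 773). The 7 CDK inhibitors were all negative there, 2 at an unadjusted p under 0.05 (median −0.19), with Cdkn1a at −0.56 (adjusted p = 0.325) and Cdkn2a, the locus of the p16 and p19 inhibitors, at −0.23 (adjusted p = 0.214). Ccnd3, a D cyclin used by lymphocytes among others, had 0.27 (adjusted p = 0.127), beside the higher T cell marker level given above, whose part was not tested. The condensin subunit Ncapd3 had 0.28 (adjusted p = 0.144) and the checkpoint kinase Chek1 0.25 (adjusted p = 0.199).

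In KO-Guanabenz against KO-Control, Cdkn2a had −0.35 (adjusted p = 0.0902), Anapc16 −0.25 (adjusted p = 0.112) and Cdk4 −0.27 (adjusted p = 0.145). In KO-Clonidine against KO-Control the smallest adjusted p-values among the other cell cycle lists were those of Ccnd3 (0.21, adjusted p = 0.758) and of the primase subunit Prim2 and the ubiquitin ligase subunit Cdc16 (each 0.18, adjusted p = 0.9). There 7 of 9 T cell markers were negative and 2 positive (median −0.26), and their part in the Ccnd3 value was not tested.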
